A study of Mus musculus with 6 samples.

Results

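The clustered replication-dependent histone genes were examined for DNA ends captured by BrITL in mouse embryonic fibroblasts. Members were the protein-coding genes named H1f1 to H1f5, or with a symbol starting in H2ac, H2bc, H3c or H4c followed by a number. The RefSeq gene table of GRCm38.p6 (mm10) held 62 such genes among 21838 protein-coding genes on 21 chromosomes. They were 5 H1, 17 H2A, 16 H2B, 12 H3 and 12 H4 genes, of which 10 lay on chromosome 3 and 52 on chromosome 13. The rule used only gene names and no measured value, though the members were chosen with earlier results of these data known.

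BrITL adds a biotinylated dideoxynucleotide to DNA ends in permeabilised cells, captures the sonicated DNA on streptavidin beads and sequences it. All cells were passage-immortalized fibroblasts of the genotype ATR+/-, expressing the survival protein Bcl-xL, so the vehicle cells carried the heterozygous ATR and Bcl-xL too. One group had DMSO, the vehicle, for 18 h. The other had 1 µM ATR-45, which blocks ATR, the kinase of the replication checkpoint, plus 0.2 µM aphidicolin, which blocks replicative DNA polymerases, for 18 h. A group was made up of 2 pull-downs and 1 input, and the data were 1 pooled peak list per condition. There was thus no value per sample, no replicate error and no test of the treatment, and a list of DNA ends holds no expression with which to check the cell type.

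Replication-dependent histone genes supply the nucleosome proteins that newly made DNA needs, and are transcribed mainly in S phase. Most have no intron, and their messages end in a stem-loop in place of a poly(A) tail, which is bound by SLBP. They sit in clusters served by the histone locus body, where NPAT activates them. H3 and H4 form the core tetramer of the nucleosome, H2A and H2B add to it as dimers, and H1 binds the linker DNA. H2A and H2B genes often lie head to head and share the DNA between their starts.

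Promoter sequences of selected members are shown first. The 150-base stretches printed for single genes hold no DMSO summit, and the nearest one lay 58 to 3715 bp from the start. Below are the 150 bases before the annotated start, in 5′ to 3′ direction on the gene's own strand, from RefSeq promoter windows of GRCm38.p6. Capitals mark the motifs searched on both strands, which were TATAAA (the TATA box), CCAAT (the CCAAT box) and ATTTGCAT (the octamer bound by POU2F1); none of the 3 contains another. H2ac19 and H3c15 flank the strongest member summit and the one treated summit, and H2ac18 is the near-identical copy of H2ac19. H3c10 and H2ac6 lie at the weakest summits, and H3c11 had no summit in reach.
H2ac19, chr3:96240375-96240524, minus strand: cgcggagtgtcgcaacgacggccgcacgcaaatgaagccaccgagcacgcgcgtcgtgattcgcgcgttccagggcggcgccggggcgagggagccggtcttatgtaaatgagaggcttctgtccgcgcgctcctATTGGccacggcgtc
H3c15, chr3:96239128-96239277, minus strand: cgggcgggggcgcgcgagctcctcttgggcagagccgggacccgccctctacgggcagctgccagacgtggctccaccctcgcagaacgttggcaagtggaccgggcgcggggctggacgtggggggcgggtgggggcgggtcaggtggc
H2ac18, chr3:96245347-96245496, plus strand: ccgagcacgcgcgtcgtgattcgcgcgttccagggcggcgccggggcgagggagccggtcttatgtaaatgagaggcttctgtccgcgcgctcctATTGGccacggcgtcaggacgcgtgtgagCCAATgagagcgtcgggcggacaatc
H3c10, chr13:21717478-21717627, plus strand: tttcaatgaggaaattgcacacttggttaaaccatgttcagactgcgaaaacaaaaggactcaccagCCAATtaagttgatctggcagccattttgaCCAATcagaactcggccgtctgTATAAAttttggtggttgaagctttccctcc
H2ac6, chr13:23683960-23684109, minus strand: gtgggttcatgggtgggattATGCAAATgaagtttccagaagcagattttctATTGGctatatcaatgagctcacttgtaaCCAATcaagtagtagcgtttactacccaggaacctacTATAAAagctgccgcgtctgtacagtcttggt
H3c11, chr13:21783398-21783547, minus strand: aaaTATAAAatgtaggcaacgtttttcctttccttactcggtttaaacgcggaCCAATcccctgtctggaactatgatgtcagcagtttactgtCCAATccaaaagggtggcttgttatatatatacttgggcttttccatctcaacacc
The H2ac19 stretch held 1 match, a reverse CCAAT box 15 bases before the start, and the H3c15 stretch held 0. H2ac18 held the same box 55 bases before its own annotated start and a forward one at 26 bases. H2ac6 held 4 matches, with the octamer, CCAAT boxes on both strands and a TATA box 32 bases before the start. H3c10 held CCAAT boxes at 83 and 53 bases and a TATA box at 31 bases before the start.

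The next sequence, chosen after its values were seen, is the DNA between the start of H2ac22 and that of H2bc22, a head-to-head H2A and H2B pair. It is given on the plus strand from the H2ac22 side, with the same motifs in capitals.
H2ac22 to H2bc22, chr13:21787249-21787487, plus strand: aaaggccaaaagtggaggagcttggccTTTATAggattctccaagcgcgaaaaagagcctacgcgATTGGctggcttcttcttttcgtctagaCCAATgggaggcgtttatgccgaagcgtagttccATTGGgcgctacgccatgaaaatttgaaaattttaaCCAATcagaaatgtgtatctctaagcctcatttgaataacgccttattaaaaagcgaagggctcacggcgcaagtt
The DMSO summit of this pair lay at base 77 of these 239 bases, between reverse and forward CCAAT boxes that start at bases 66 and 94. In all, the stretch held 4 CCAAT matches and 1 TATA match.

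A summit is the base of highest signal in a peak, and a gene was counted where a summit lay in its body or within 1 kb of either end. In the DMSO list, 49 of the 62 histone genes had a summit, or 79.0% (Clopper-Pearson 95% interval 66.8% to 88.3%). The interval covers counting error only and is too narrow, because neighbouring histone genes share summits. Among all protein-coding genes the share was 23.9%, or 5213 genes. Most histone genes are short, with a median span of 491 bp, and among the other 1507 protein-coding genes spanning up to 1 kb the share was 1.26%. Those genes were picked by span alone, and whether they are active in these cells was not known. In the treated list, 2 of 62 histone genes had a summit, against 1.16% of all protein-coding genes and 0.133% of the other short ones. Both of those, H2ac19 and H3c15, were counted for a single summit. With summits inside the body only, the DMSO count was 13 of 62, against 13.2% of all protein-coding genes, and the treated count was 0, against 0.76%.

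The 49 genes were reached by 47 DMSO summits, of which 22 lay in reach of more than 1 member and 25 in reach of 1. Of the genes, 28 had 1 summit in reach, 19 had 2 and 2 had 3. The latter 2 were H2ac8 and H2bc8, a head-to-head pair with summits at 14.1, 14.1 and 12.0 fold. Fold means the authors' enrichment of the pooled pull-down over background at the summit. The number of sequenced fragments stacked at the summit was recovered from the deposited values of each peak. Every peak of the DMSO list had at least 35 such fragments.

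**Figure D1:**
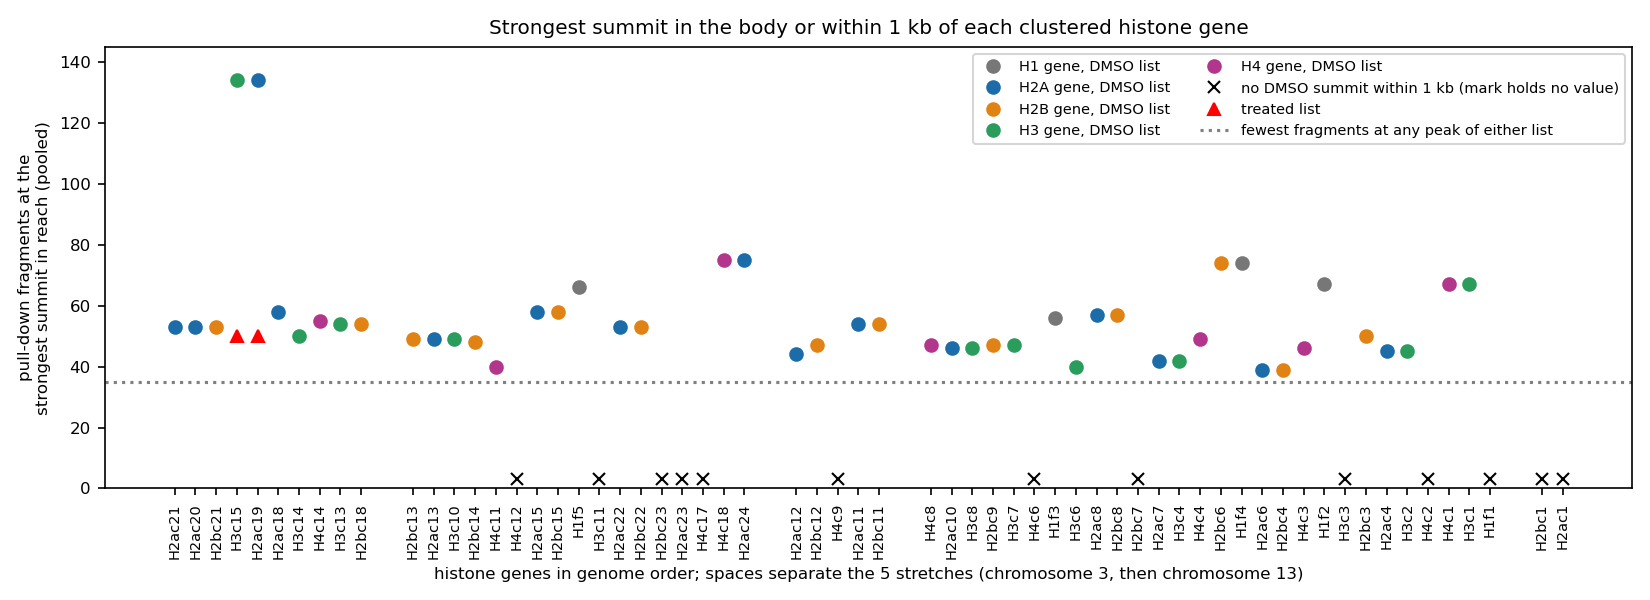
Fragments at the strongest DMSO summit in reach of each of the 62 histone genes (y axis, fragments; pooled pull-downs) in chromosome order (x axis), coloured by histone class; red triangles show the treated list at H3c15 and H2ac19 (50 fragments), crosses mark the 13 genes without a DMSO summit and hold no value, and the dotted line is the lowest value in the list, 35. The H2ac19 and H3c15 point at 134 stands above all others, which lie between 39 and 75. The strongest summit is the one of highest fold.

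Linker histone genes had the highest typical values. All 5 lie on chromosome 13, and 4 had a DMSO summit, with a median of 66.5 fragments over genes. The values were 74 fragments (18.3 fold) 201 bp past the 3′ end of H1f4, 67 (16.6 fold) inside H1f2, 66 (16.3 fold) 150 bp past the 3′ end of H1f5, and 56 (13.9 fold) inside H1f3. All 5 bodies lay wholly under a DMSO peak, including H1f1, whose nearest summit was 1181 bp away.

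H2A genes had a summit in 15 of 17 cases, with a median of 53 fragments at the strongest one. On chromosome 3 all 4 did: H2ac19 had 134 fragments (32.8 fold), H2ac18 had 58 (14.4 fold), and H2ac20 and H2ac21 shared 53 (13.2 fold). On chromosome 13 the H2A genes ran from 39 fragments (9.77 fold) at H2ac6 to 75 (18.5 fold) at H2ac24, whose summit lay 863 bp away, inside H4c18. Between these were H2ac15 with 58 fragments, H2ac8 with 57, H2ac11 with 54, H2ac22 with 53, H2ac13 with 49 and H2ac10 with 46. H2ac4 had 45, H2ac12 had 44 and H2ac7 had 42. The strongest summit of a gene was the one of highest fold. H2ac12 also had the summit of 47 fragments that it shared with H2bc12, at a lower fold of 9.71. H2ac23 and H2ac1 had no summit in reach.

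H2B genes had a summit in 13 of 16 cases, also with a median of 53 fragments. The highest was H2bc6 with 74 fragments (18.3 fold), a summit it shared with H1f4 at the edge of its 37455 bp RefSeq span. Another promoter window of H2bc6 lies far inside that span, at 23585921 to 23586220, and held no DMSO summit. H2bc15 had 58, H2bc8 had 57, and H2bc11 and H2bc18 had 54. H2bc21 and H2bc22 each had 53. The remaining values were 50 at H2bc3, 49 at H2bc13, 48 at H2bc14, 47 at H2bc9 and H2bc12, and 39 at H2bc4 (9.77 fold). H2bc7, H2bc23 and H2bc1 had no summit in reach.

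H3 genes had a summit in 10 of 12 cases, with a median of 48 fragments. H3c15 shared the summit of 134 fragments with H2ac19 and had a second of 74 fragments (18.3 fold) 139 bp past its 3′ end. H3c1 had 67 (16.6 fold), H3c13 had 54, H3c14 had 50, H3c10 had 49, H3c7 had 47 and H3c8 had 46. H3c2 had 45, H3c4 had 42 and H3c6 had 40 (10.0 fold). H3c3 and H3c11 had none in reach.

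H4 genes had a summit least often, in 7 of 12 cases, with a median of 49 fragments. H4c18 had 75 (18.5 fold), H4c1 had 67, H4c14 had 55 and H4c4 had 49. H4c8 had 47, H4c3 had 46 and H4c11 had 40 (10.0 fold). On chromosome 13 the share of H4 genes was 6 of 11, and their 5 genes without a summit were H4c2, H4c6, H4c9, H4c12 and H4c17. The 12 H4 genes were too few to set this share apart from the other classes: its interval ran from 27.7% to 84.8%, and that of H2A from 63.6% to 98.5%.

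**Figure D2:**
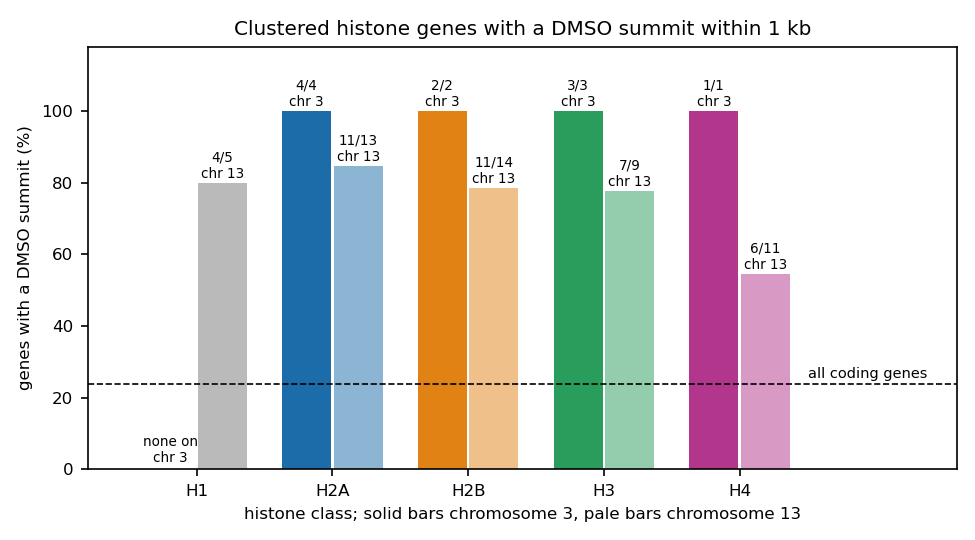
Share of histone genes with a DMSO summit in the body or within 1 kb (y axis, percent) by histone class (x axis), with chromosome 3 in solid and chromosome 13 in pale bars and the counts above; the dashed line is the 23.9% of all protein-coding genes. The 10 genes on chromosome 3 all had a summit, and H4 genes on chromosome 13 had the lowest share, 6 of 11.

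Members less than 100 kb apart were joined, which gave 1 stretch on chromosome 3 and 4 on chromosome 13. The chromosome 3 stretch (96219885 to 96270192, 50.3 kb) held 10 genes, all with a DMSO summit. On chromosome 13, the first stretch (21715711 to 21833475, 117.8 kb) had 12 of 17 genes with a summit and the second (22035122 to 22043658, 8.54 kb) had 4 of 5. The third (23531044 to 23764412, 233.4 kb) had 23 of 28, and the fourth (23933725 to 23934913, 1.19 kb) had 0 of 2. The fourth holds H2bc1 and H2ac1, known as testis histone genes, whose nearest summits lay 171238 and 171950 bp away.

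Summits were dense in these stretches. Counted with 1 kb on either side, they numbered 17.2 per 100 kb on chromosome 3 and 10.0, 28.5 and 9.77 per 100 kb in the first 3 stretches of chromosome 13, against 0.238 per 100 kb over the genome. Every one of these 9, 12, 3 and 23 summits lay within 1 kb of a histone gene. The 9 summits on chromosome 3 had a median of 55 fragments (range 50 to 134), and the 38 on chromosome 13 a median of 48 (range 37 to 75). All 9 on chromosome 3 lay above the median fold of the list, 10.99, and 25 of 38 on chromosome 13 did. Between the first and the last histone gene of chromosome 13, 2.22 Mb apart, lay 52 other protein-coding genes, 36 of them vomeronasal receptor genes of the Vmn1r family. Among the 52 is H4bc24 beside H2ac24, whose histone-like symbol the naming rule misses. It had no DMSO summit in reach, the nearest being 1582 bp away. Of these 52, only Zfp184, a zinc finger gene, had a DMSO summit, and 0 had a treated one. H1f6, the testis linker histone, and Hfe, an iron regulator, lie inside the third stretch and had none.

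The highest member summit was in the 651 bp between the 3′ end of H2ac19 and the start of H3c15. It had 134 fragments in the DMSO list (Poisson 95% interval 112.3 to 158.7, counting error only), or 46.6 times the pull-down average of 2.88 fragments. Its fold of 32.8 ranked 2 of 6444 in the list. The treated list had a summit at the same base, chromosome 3 position 96239649, with a difference of 0 bp. There it had 50 fragments (interval 37.1 to 65.9), or 9.73 times that list's pull-down average of 5.14, a fold of 7.05 and rank 32 of 491. The treated peak was 120 bp wide and lay wholly inside the DMSO peak of 187 bp. Folds of the lists are set side by side and not compared, since background, depth and entry into each list differed.

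This base lies 130 bp past the 3′ end of H2ac19 and 522 bp upstream of the H3c15 start, so outside the 150 bases printed for either. Summits of 86 fragments (21.2 fold) inside H2ac19, 58 bp from its start, and 74 fragments beyond H3c15 flank it. H2ac18 and H3c14 form a mirrored copy of this pair, with 632 bp between them. The position of that spacer at the same distance from the gene end lay under no peak of either list, and the nearest DMSO summit was 962 bp away. The spacers were compared only in the promoter windows at the starts of H3c15 and H3c14, which matched at 284 of 285 bases. Those windows do not reach the summit or the mirrored position, so whether the 2 match in sequence is not known. The summits at the copy had 58 fragments, 277 bp upstream of H2ac18, and 50 fragments, 18 bp past the 3′ end of H3c14. The other 60 histone genes lay at least 5.85 kb from a treated summit, and those on chromosome 13 between 4243 and 6461 kb. The treated list held 15 peaks on chromosome 13 and 24 on chromosome 3. Every treated peak had at least 35 fragments, so a gene without one may still have had ends below that level.

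**Figure D3:**
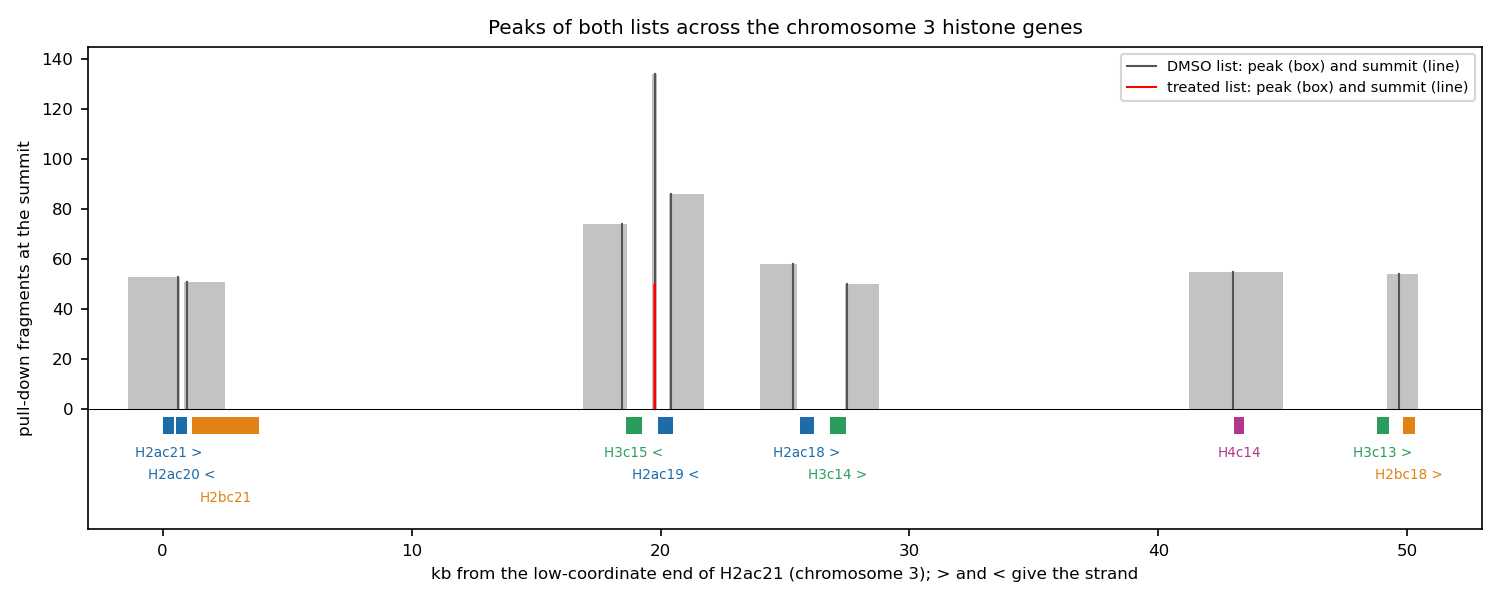
Map of the chromosome 3 histone stretch, with distance in kb from its first gene (x axis), gene bodies below the axis coloured by class, and peaks as boxes whose height is the pooled pull-down fragment count at the summit (y axis), with the summit as a line; grey is the DMSO list and red the treated list. The treated list has its single summit where the DMSO list has its highest, 134 fragments, between H2ac19 and H3c15.

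Several histone genes have near-identical copies, which makes their separate values uncertain. When the 57 available promoter windows of 300 bases were aligned to each other at the best shift, 5 of 1596 pairs were over 90% identical, and the median pair was 34.2%. H2ac23 and H2ac24 matched at 200 of 200 bases, H4c17 and H4c18 at 298 of 299, and H3c14 and H3c15 at 284 of 285. H4c11 and H4c12 matched at 274 of 286 and H2ac18 and H2ac19 at 249 of 260. The sources used here do not say how reads that match several places were handled. Members of such pairs differed in the list: H4c18 had 75 fragments and H4c17 no summit within 19381 bp, and H4c11 had 40 and H4c12 none in reach. H2ac24 was counted only for the H4c18 summit 863 bp away, and 0% of its body and of that of H2ac23 lay under a peak. Of the 4 member peaks under 500 bp wide, 3 lay in reach of these genes. They were 151 bp wide beside H4c18, 175 bp over the H4c18 start and 187 bp at H2ac19. The part of copied sequence in these values was not tested. Without these 10 genes, 42 of 52 (80.8%) had a DMSO summit, 0 had a treated one, and the highest value was 74 fragments.

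Of the 13 genes without a summit in reach, 4 lay just past the limit. H3c3 was 1005 bp from the nearest summit, H4c9 1007, H2bc7 1141 and H1f1 1181. The next was H3c11 at 3233 bp. Just inside were H2bc11 at 829, H2ac24 at 863 and H2ac10 at 874 bp. The bodies of H4c9, H2bc7, H1f1 and H4c12 lay wholly under DMSO peaks, and 46.2% of H3c11 and 17.3% of H3c3 did. H4c6 and H4c2 were 4100 and 4332 bp away with 0% of their bodies covered. In all, a DMSO peak touched the body of 52 of 62 histone genes, against 24.5% of all protein-coding genes.

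More summits lay beside the short gene bodies than in them, but these counts are not per base. The 1 kb counted on either side is longer than the median body of 491 bp. Of the 42 summits whose nearest gene had a known strand, 11 lay upstream of it, 13 inside and 18 downstream, past the 3′ end. Within 250 bp of a body lay 40 of the 47, and within 250 bp of a start 14, with a median of 503 bp to the nearest start. The 300-base promoter window, from 250 bases before the start to 50 after it, held a summit in 15 of 57 genes (26.3%), against 1172 of 17434 other protein-coding genes (6.72%). Members included H4c3, H4c8 and H4c18, H3c6 and H3c8, and the head-to-head genes H2ac13 and H2bc13.

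Among the members there were 9 head-to-head H2A and H2B pairs, with starts 164 to 281 bp apart. A DMSO summit lay between the starts in 3: H2bc13 and H2ac13 with 49 fragments (12.2 fold), H2ac22 and H2bc22 with 53 (13.2 fold), and H2ac12 and H2bc12 with 47 (9.71 fold). The H2ac22 and H2bc22 summit is the one marked by position in the sequence above. In 7 of the pairs at least 1 gene had a summit in reach, and H2bc23 with H2ac23 and H2bc1 with H2ac1 had none.

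DMSO peaks were often interrupted at the gene bodies themselves. Within the stretches, 18 gaps of up to 1 kb separated neighbouring peaks, with a median of 223.5 bp, and all 18 touched a histone gene body. Bodies of short histone genes made up 7.22% of the stretches. That share is no baseline for the gaps, which lie only between peaks, and every summit here was within 1 kb of a histone gene. How often such gaps would touch a body by position alone was not tested. The gaps touched 8 of 17 H2A genes, 4 of 16 H2B, 4 of 12 H3, 3 of 12 H4 and 0 of 5 H1 genes. Among the 45 histone genes spanning up to 1 kb with a summit, a median of 58.6% of the body and 83.9% of the 500 bp flanks lay under a peak. In 27 of them (60.0%) the body was covered less than the flanks. Among the other 19 short protein-coding genes with a summit the medians were 100% and 97.6%, and 1 (5.26%) had the body covered less.

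By class, all 4 H1 genes with a summit lay wholly under a peak, as did 2 of 15 H2A, 4 of 9 H2B, 3 of 7 H4 and 0 of 10 H3 genes. The median body cover was 45.5% for H2A, with flanks at 80.1%, and 52.6% for H3, with flanks at 53.6%. The near-equal H3 medians hide the values per gene, since most H3 bodies were covered less than their own flanks. Examples are H3c15 (9.40% against 57.3%), H3c10 (48.0% against 100%) and H3c1 (64.7% against 100%). Only H3c7 (66.0% against 50%) and H3c6 (68.5% against 50%) went the other way. For H2B the medians were 68.2% and 82.0%, for H4 77.0% and 100%, and for H1 100% for both. These counts are small, and the difference between classes was not tested. For the 42 histone genes with a known start, the share under a peak was 78.6% at 50 bp before the start, 31.0% near the middle of the body and 78.6% at 50 bp past the end. For 18 other short genes the same shares were 94.4%, 88.9% and 77.8%. The sequences of the gene bodies were not used here, so how alike they are within a class was not measured.

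**Figure D4:**
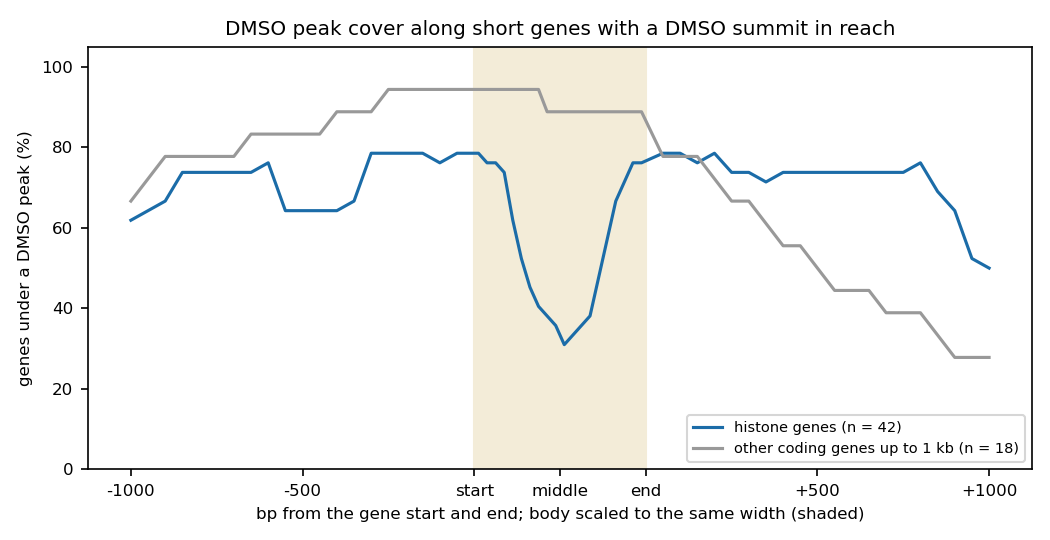
Share of genes under a DMSO peak (y axis, percent) along the gene (x axis, distance in bp outside the body and scaled position inside it) for 42 histone genes and 18 other protein-coding genes spanning up to 1 kb, all with a summit in reach. The histone curve dips to 31.0% near the middle of the body, between 78.6% on either side.

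Set against the other 3637 DMSO peaks whose summit was near an end of a protein-coding gene (up to 1 kb away), the 47 histone summits differed little in height and more in shape. Their median fold was 12.2 (order-statistic 95% interval 11.5 to 13.2) against 11.7, and their median fragment count 50 against 49. The histone peaks were narrower, with a median of 1577 bp against 2909 bp. In 26 (55.3%) the summit lay within 250 bp of a peak edge, against 122 (3.35%) of the others. The background term exceeded its genome-wide level at 2 (4.26%) of the histone summits, against 18.9% of the others. These 2 lay at H2ac12 with H2bc12 and at H2ac11 with H2bc11. That level was 2.32 on the scale of the authors' caller, where 1 pull-down fragment counts as 0.805.

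Of the 47 summits, 5 (10.6%) ranked in the top 491 by fold, which is the length of the treated list, against 9.35% of the other gene-end peaks. They were the spacer summit, the one at the H2ac19 start (rank 109), H4c18 (rank 273), and, tied at rank 302, H1f4 and the 3′ side of H3c15. Of these 5, 1 met a treated peak, as did 109 of the 492 top peaks of the whole list (22.2%). Histone summits outside chromosome 3 reached the top of the DMSO list in 2 cases and met a treated peak in 0.

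Promoter motifs were counted as a description, and a match is not a shown binding site. In the 57 windows CCAAT occurred in 49 (86.0%), TATAAA in 34 (59.6%) and ATTTGCAT in 12 (21.1%). Over all 17491 protein-coding windows the shares were 39.0%, 13.3% and 1.71%. CCAAT was in all 5 H1, 17 H2A, 14 H2B and 10 H3 windows and in 3 of 11 H4 windows. The octamer was in 6 of 17 H2A and 6 of 14 H2B windows and in 0 of the rest. Among the 44 genes with a window and a DMSO summit, CCAAT occurred in 41, TATAAA in 25 and the octamer in 10. Among the 13 without a summit the counts were 8, 9 and 2, and 5 of these 13 are H4 genes, the class that seldom holds CCAAT.

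Genes that act on histone genes and their products were read from lists. Of 25 genes for histone gene expression and 3′ end processing, 14 (56.0%) had a DMSO summit and 0 a treated one, against 23.9% and 1.16% of all protein-coding genes. Cramp1l had 17.8 fold and 72 fragments, the highest of the list. E2f1 (15.8), an S phase activator, Pou2f1 (15.6), the octamer factor, Slbp (15.1), the stem-loop binding protein, and Yy1 (15.1) followed. The cyclins E, Ccne2 (14.9) and Ccne1 (10.99), their kinase Cdk2 (9.05), and the NPAT gene Npat (11.7) were also counted. So were Nelfe (13.7), the H4 promoter factor Hinfp (12.4), the histone locus body gene Casp8ap2 (11.7), Srrt (11.5) and the U7 snRNP partner Zfp473 (10.0). These values in parentheses are DMSO folds.

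Of 16 histone chaperone and import genes, 12 (75.0%) had a DMSO summit and 0 a treated one, beside the same 23.9% and 1.16%. With so few genes, 0 treated summits is near what the share of all genes gives in both lists. Rbbp4, a subunit of several histone-binding complexes, was highest at 19.2 fold and 78 fragments. The chaperones of H3 and H4 had folds of 15.6 at Asf1b, 13.9 at Asf1a, 12.7 at Chaf1b, 10.99 at Chaf1a and 10.3 at Nasp. Mcm2, a helicase subunit that binds histones, had 11.7, Tonsl 10.5, the acetyltransferase gene Hat1 9.41 and Rbbp7 9.29. The H2A and H2B chaperones Nap1l4 and Nap1l1 had 14.9 and 10.0.

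Most replacement and variant histones are made outside S phase as well, mainly from single genes elsewhere in the genome. Of 13 such genes, 7 (53.8%) had a DMSO summit and 1 a treated one, against 23.9% and 1.16% of all protein-coding genes and 79.0% and 3.23% of the clustered genes. H2az1, the H2A.Z gene, was highest with 2 summits, the stronger of 21.9 fold and 89 fragments. It also had a treated summit of 6.65 fold and 47 fragments, rank 40 of 491. H2ax had a DMSO fold of 16.1, H3f3b 15.8, H2az2 14.4, H3f3a 13.2, H2aj 12.9 and H1f0 12.4. The 13 also include H2bu2 and H3f4, which are not single genes but lie close together on chromosome 11 (from 58948911 and 58961711). Neither had a DMSO summit in reach, which lowers the share of this list. The median gene span was 17.7 kb in the expression list, 23.7 kb in the chaperone list and 2.44 kb among variant histones, against 491 bp for the clustered genes, and the part of length in these counts was not tested.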

How the data were processed

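Members and gene lists were chosen with earlier results of these data known. The 6 samples gave 2 deposited peak lists (6444 DMSO, 491 treated), each pooled over 2 pull-downs and 1 input, per the peak names. Submitters' processing notes name the build mm10 and, with no roles or settings, the tools MACS2 2.1.0, STAR 2.5.2a, Picard 1.141, SAMtools 0.1.19 and bcl2fastq 2.17.1.14. How peaks entered the lists and how reads with several matches were handled is not stated there.

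Each peak holds values made by the authors' caller: a fold (ratio) at the summit, −log10 p, −log10 q and a score, which is the whole part of 10 times −log10 p in 100% of peaks. The deposited fold was inverted (pileup plus 1 over background plus 1, with p as a Poisson tail) to give whole fragments, accepted within 0.02. This solved 100% of peaks, and 100% were right on simulated peaks (600 DMSO, 598 treated). The simulated peaks were built with the same formula, so they check the inversion and not the formula. They did not reach the highest backgrounds and fragment counts of the lists. Read totals are unknown.

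The RefSeq table (GRCm38.p6) gave 49713 genes, without strand or exons, and 280 rows on other scaffolds were left out. Strand and promoter windows came from a RefSeq promoter table holding 57 of 62 members, not H4c14, H3c7, H3c1, H2bc21 and H2bc4. Shares have Clopper-Pearson 95% intervals. Named genes were every member or list gene with a summit, and the 5 nearest outside the 1 kb limit; other names were chosen after their values were seen. Alternatives changed the flank, the overlap, the q threshold, the merging of peaks and the gene assignment. Of 18 variant names written, 13 genes were found, since several are synonyms and H3f5 was not found. The software was pandas 2.3.3, SciPy 1.17.1, NumPy 2.4.6 and matplotlib 3.10.9 under Python 3.11.15.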

Additional observations from a re-analysis of the deposited data

How the results depend on the processing

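Across 10 alternative settings, 35 of 51 recomputed values stayed near the main one (counts within 1.5 times) and 16 did not. With summits inside the body only, 13 histone genes and 14 summits were counted in the DMSO list, and 0 genes, 0 summits and 0 shared sites in the treated list. At −log10 q of at least 30, 32 genes and 27 summits with a median fold of 13.9 were left in the DMSO list (11.8% of all protein-coding genes), and 0 genes, 0 summits and 0 shared sites in the treated list, where the highest member value is 8.51. Merging peaks under 500 bp apart left 30 DMSO summits at 43 genes. Giving each summit to its nearest histone gene left 36 DMSO genes and 1 treated gene. Leaving out the 10 genes with a near-identical promoter window, an alternative chosen after seeing the data, left 42 DMSO genes and, in the treated list, 0 genes, 0 summits and 0 shared sites. Flanks of 2 and 5 kb gave 53 and 57 DMSO genes, and wider flanks can only raise such counts. Shares of all protein-coding genes are given for the body-only setting and for the DMSO list at −log10 q of at least 30. They are not given for the wider flanks, merged peaks, nearest-gene assignment or the treated list at that q, so those counts have no baseline. The treated list as a whole had a median −log10 q of 4.75. No paired analysis was possible because each list pools its pull-downs and holds no value per sample, and for the same reason no replicate could be left out. Every peak has at least 35 fragments, so lower signal was not detectable.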
